A study of Homo sapiens with 12 samples.

Results

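The 10 genes described here encode receptors and core machinery of mitophagy and autophagy: BNIP3, BNIP3L, FUNDC1, PINK1, SQSTM1, MAP1LC3B, GABARAPL1, ULK1, WIPI1 and ATG5. All 10 were found by symbol among the 26475 gene symbols of the count table, and all 10 passed the filter on low counts in both cell lines. They were chosen by name with their differences between BAY-850 and DMSO known, so those differences are given as a description. Adjusted p-values and calls printed for these differences come from fits over all genes. They describe where a gene stood in a fit and are no independent test of the 10 genes. RNA was sequenced from PA-1, a human ovarian teratocarcinoma line grown in DMEM, and SK-OV3, a human ovarian adenocarcinoma line grown in RPMI. Cells of each line received DMSO, the vehicle, or 5 µM BAY-850, an inhibitor directed at the bromodomain protein ATAD2, and were harvested after 48 h. Each of the 4 groups held 3 biological replicates, which gave 12 libraries. Each tumour type was represented by 1 established line, and no other genotype or agent was used in these samples.

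Macroautophagy encloses cytoplasm in a double membrane that grows from a cup, closes into an autophagosome and fuses with a lysosome. The ULK1 kinase complex and a lipid kinase complex start the process, WIPI proteins read the lipid made by that kinase, and an ATG5 conjugate attaches ATG8 proteins such as LC3B and GABARAPL1 to the membrane. In mitophagy the cargo is a mitochondrion, marked either by receptors in its outer membrane (BNIP3, BNIP3L, FUNDC1) or by the kinase PINK1 and the ubiquitin ligase Parkin, after which adaptors such as p62, the product of SQSTM1, can bind ubiquitin and ATG8 proteins. BNIP3 and BNIP3L are known as genes induced by low oxygen through hypoxia-inducible factors.

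Values are expected counts scaled to counts per 1000000 (CPM) with TMM factors, and fold changes are on the log2 scale with their standard error (SE) from edgeR. The total expected count per library ran from 34544505 to 51840233, and 4 ribosomal RNA genes took 7.94% to 16.9% of it. BAY-850 replicate 3 of SK-OV3 stood apart, with the highest total but 15626 genes with a count, against 17418 to 18403 in the other libraries, and the lowest share of values that were not whole, 8.94%. Without it the SK-OV3 log2 fold changes were 0.93 for BNIP3, 0.61 for BNIP3L, 0.71 for SQSTM1, 0.27 for MAP1LC3B and 0.65 for GABARAPL1. PINK1 was at 0.16 without it and passed an adjusted p under 0.05 (0.0416 in edgeR), which it did not in the fit reported. The labels of the lines were checked with marker lists. LIN28A averaged 756 CPM, SOX2 224 CPM and POU5F1 409 CPM in PA-1 with DMSO, against 0.102, 0 and 6.74 CPM in SK-OV3, but L1TD1, another gene of undifferentiated cells, averaged only 0.448 CPM in PA-1. ERBB2 averaged 2420 CPM and KRT7 440 CPM in SK-OV3 with DMSO, against 61.3 and 0.103 CPM in PA-1. The list of SK-OV3 markers as a whole separated the lines less sharply. Of its 6 genes, 4 were at or above 1 CPM in PA-1 with DMSO, where the list summed to 922 to 979 CPM. Of the 7 markers of blood, endothelial and stromal cells, PTPRC, CD3E, MS4A1 and CD14 stayed at or below 0.377 CPM in every library, while COL1A1 was present in both lines and PECAM1 averaged 23.6 CPM in PA-1 with DMSO. The summed markers also differed between treatments in SK-OV3. Its own 6 markers summed to 4120 to 4420 CPM with DMSO and 2890 to 3350 CPM with BAY-850, the 5 PA-1 markers to 36.0 to 40.3 and 77.7 to 81.3 CPM, and the 7 markers of other cells to 167 to 176 and 84.9 to 112 CPM. In PA-1 the same sums ran from 922 to 979 and 1010 to 1050 CPM for the SK-OV3 markers, from 1360 to 1560 and 1550 to 1640 CPM for the PA-1 markers, and from 453 to 560 and 591 to 642 CPM for those of other cells. Their part in the results below was not tested. In bulk RNA, fewer cells that express a gene and less of its RNA in each cell cannot be told apart.

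Promoters were read for 8 of the 10 genes, with 11 start sites in all, from the RefSeq table of GRCh38.p14. The sequences below are the 250 bases before the start site of 3 genes, 5′ to 3′ on the gene's strand. They are shown because BNIP3 differed between treatments in both lines, MAP1LC3B and GABARAPL1 belong to the same ATG8 family, and the GABARAPL1 values had opposite signs in the lines. Capitals mark matches to ACGTG or GCGTG, the core of the hypoxia response element, or to CACGTG, an E-box, on either strand. The BNIP3 stretch is chr10:131981924-131982173 on the minus strand, that of MAP1LC3B is chr16:87392086-87392335 on the plus strand, and that of GABARAPL1 is chr12:10212627-10212876 on the plus strand.
BNIP3: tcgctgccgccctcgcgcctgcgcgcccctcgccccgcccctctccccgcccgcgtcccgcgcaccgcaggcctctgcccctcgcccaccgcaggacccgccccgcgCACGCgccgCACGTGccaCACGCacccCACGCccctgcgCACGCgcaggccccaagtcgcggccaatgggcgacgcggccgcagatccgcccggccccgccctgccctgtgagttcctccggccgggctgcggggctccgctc
MAP1LC3B: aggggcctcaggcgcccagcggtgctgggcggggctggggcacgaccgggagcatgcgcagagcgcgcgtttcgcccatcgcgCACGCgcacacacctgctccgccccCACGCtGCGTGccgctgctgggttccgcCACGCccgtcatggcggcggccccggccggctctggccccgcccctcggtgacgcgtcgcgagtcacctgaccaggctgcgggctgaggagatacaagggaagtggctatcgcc
GABARAPL1: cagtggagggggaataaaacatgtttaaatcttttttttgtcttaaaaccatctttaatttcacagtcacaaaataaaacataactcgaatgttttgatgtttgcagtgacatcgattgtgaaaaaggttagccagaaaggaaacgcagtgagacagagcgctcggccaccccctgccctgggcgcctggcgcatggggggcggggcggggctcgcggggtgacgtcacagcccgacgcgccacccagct

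The BNIP3 stretch held CACGTG from base -134 to base -129 before the start, which contains ACGTG on both strands. It also held 4 matches to GCGTG, all on the opposite strand. MAP1LC3B held 4 matches to GCGTG and none to ACGTG, and GABARAPL1 held no match to either. Among 35116 promoter stretches of the same length, 18.5% held ACGTG, 32.2% held GCGTG and 6.34% held CACGTG, all counted on both strands. Of the 8 genes whose promoter was read, 2 held ACGTG (BNIP3 and the second start of ATG5). GCGTG was held by 3 (BNIP3, MAP1LC3B and ULK1) and CACGTG by 1 (BNIP3). No promoter of BNIP3L or PINK1 was read, so these counts do not cover them. TCACGTGA, the core of the lysosomal gene element, was in 0.854% of all stretches and TGATGNAA, an element of C/EBP and ATF factors, in 3.14%, and neither was in a stretch of the 8 genes. A match describes the letters of the stretch and is no evidence of binding in these cells.

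BNIP3 (chr10:131966455-131982013, GRCh38) had the highest fold change of the 10 genes in either line. In PA-1 its level was 312, 318 and 323 CPM with DMSO and 455, 464 and 505 CPM with BAY-850. In SK-OV3 the level was 93.3, 88.0 and 88.4 CPM with DMSO and 175, 166 and 169 CPM with BAY-850. The libraries of the treatments did not overlap in either line, and every PA-1 library lay above every SK-OV3 library. This gave a log2 fold change of 0.58 (SE 0.056), or 1.5-fold, for PA-1 and of 0.93 (SE 0.0542), or 1.91-fold, for SK-OV3. Among all genes tested these values stood at percentile 96.3 in PA-1 and 97.0 in SK-OV3. The difference of the responses, SK-OV3 minus PA-1, was 0.34 (SE 0.0712) on the log2 scale.

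BNIP3L, also called NIX, encodes the closest relative of BNIP3. In PA-1 it was at 221, 235 and 223 CPM with DMSO and at 261, 257 and 259 CPM with BAY-850. SK-OV3 libraries held 87.3, 91.4 and 90.7 CPM with DMSO and 139, 135 and 126 CPM with BAY-850. The treatments did not overlap in either line, but the gap in PA-1 was small, with a log2 fold change of 0.20 (SE 0.0526) against 0.58 (SE 0.055) in SK-OV3. The difference of the responses was 0.38 (SE 0.0706). With each library's trend on GC content removed, the PA-1 value was 0.30. The PA-1 call (edgeR adjusted p = 0.0368) was lost in 8 of 17 alternatives. Among these were edgeR fits with library size only (0.16, adjusted p = 0.201) and with library size without ribosomal RNA genes (0.18, adjusted p = 0.0606).

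FUNDC1 (chrX:44523639-44543001) encodes another receptor of the outer membrane. It was at 24.7, 21.8 and 21.7 CPM in PA-1 with DMSO and at 19.5, 17.7 and 20.1 CPM with BAY-850. The SK-OV3 values were 29.2, 29.7 and 29.2 CPM with DMSO and 26.3, 31.1 and 28.7 CPM with BAY-850. The PA-1 groups did not overlap, with BAY-850 lower, and the SK-OV3 groups did. Its log2 fold change was -0.25 (SE 0.0892) in PA-1, against -0.0211 (SE 0.0844) in SK-OV3. Its PA-1 value thus had the opposite sign to those of BNIP3 and BNIP3L, but was not called (edgeR adjusted p = 0.107).

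PINK1 (chr1:20633455-20651511) encodes the kinase that accumulates on depolarised mitochondria. PA-1 libraries held 35, 30 and 30.7 CPM with DMSO and 33.6, 32.4 and 35.4 CPM with BAY-850, and these groups overlapped. SK-OV3 libraries held 148, 146 and 149 CPM with DMSO and 162, 167 and 154 CPM with BAY-850, with no overlap but a small gap. Its log2 fold change was 0.087 (SE 0.0765) in PA-1, against 0.14 (SE 0.0489) in SK-OV3. The SK-OV3 value was not called in the edgeR fit reported (adjusted p = 0.0665). It was called with DESeq2 (0.0304) and with edgeR without DMSO replicate 1 (0.0499) or without BAY-850 replicate 3 (0.0416). Expected counts of PINK1 were not whole numbers in all 12 libraries, which shows that reads were divided between it and another gene. The antisense gene PINK1-AS averaged 7.51 CPM in SK-OV3 with DMSO and 2.08 CPM in PA-1 with DMSO, and the strand setting of the counting is not given in the sources used here, so reads of the pair may be mixed.

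SQSTM1 (chr5:179806398-179838078), which encodes the adaptor p62, was the most abundant of the 10 genes in CPM in SK-OV3. It was at 451, 433 and 437 CPM in PA-1 with DMSO and at 454, 461 and 514 CPM with BAY-850. In SK-OV3 the values were 615, 591 and 580 CPM with DMSO and 987, 958 and 930 CPM with BAY-850. The PA-1 groups missed overlap by a few CPM, and the SK-OV3 groups were far apart. Its log2 fold change was 0.12 (SE 0.0581) in PA-1, against 0.70 (SE 0.0434), or 1.62-fold, in SK-OV3, a difference of 0.57 (SE 0.0723). Its expected counts were not whole in all 12 libraries.

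MAP1LC3B (chr16:87383995-87404779) encodes LC3B, the ATG8 protein most often used to follow autophagosomes. It was at 125, 123 and 114 CPM in PA-1 with DMSO and at 129, 133 and 134 CPM with BAY-850. The SK-OV3 values were 144, 144 and 143 CPM with DMSO and 169, 178 and 180 CPM with BAY-850. The groups did not overlap in either line. The response was 0.13 (SE 0.0569) on the log2 scale in PA-1, against 0.30 (SE 0.0524) in SK-OV3. The near-identical gene MAP1LC3B2 stayed at or below 1.80 CPM in every library, and expected counts of MAP1LC3B were not whole in 11 libraries, so its values hold an estimated share of reads whose size is unknown.

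GABARAPL1 (chr12:10212458-10223130) encodes an ATG8 protein of the GABARAP branch. In PA-1 it was at 158, 153 and 160 CPM with DMSO and at 143, 137 and 144 CPM with BAY-850. In SK-OV3 it was at 17.6, 18.8 and 15.7 CPM with DMSO and at 26.7, 27.9 and 31.1 CPM with BAY-850. The groups did not overlap in either line, and the direction was opposite, lower in PA-1 and higher in SK-OV3. The PA-1 difference was not called in the edgeR fit reported (adjusted p = 0.109), and among the alternatives only with DESeq2 (0.0422). The response was -0.15 (SE 0.0542) on the log2 scale in PA-1, against 0.73 (SE 0.105), or 1.66-fold, in SK-OV3. The difference of 0.87 (SE 0.0985) was the largest between the lines among the 10 genes. Its counts were whole in every library, and its near copy GABARAPL3 did not pass 0.141 CPM in any library.

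ULK1 (chr12:131894651-131923167) encodes the kinase that starts autophagosome formation. It was at 31.2, 34 and 32.9 CPM in PA-1 with DMSO and at 38.1, 40.2 and 40.5 CPM with BAY-850, without overlap. SK-OV3 libraries held 43.8, 44.3 and 47 CPM with DMSO and 51.3, 50.1 and 46.5 CPM with BAY-850, with overlap. The response was 0.28 (SE 0.0676) on the log2 scale in PA-1, against 0.14 (SE 0.0665) in SK-OV3. The transcript of ULK1 had a GC content of 64.2%, the highest of the 10, and with the GC trend of each library removed the PA-1 value was 0.16 and its call was lost.

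WIPI1 (chr17:68420948-68457513) encodes a protein that binds phosphatidylinositol 3-phosphate on the growing membrane. It was at 14.8, 17.5 and 16.6 CPM in PA-1 with DMSO and at 16.7, 16.9 and 16.7 CPM with BAY-850. The SK-OV3 values were 13.1, 12 and 9.77 CPM with DMSO and 12.7, 15.2 and 14.3 CPM with BAY-850. The groups overlapped in both lines. The log2 fold change was 0.0418 (SE 0.0944) in PA-1, against 0.29 (SE 0.137) in SK-OV3, the widest error among the 10 genes.

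ATG5 (chr6:106045423-106325791) encodes the partner of ATG12 in the conjugate that attaches ATG8 proteins to lipid. It was at 89.5, 90.1 and 89.8 CPM in PA-1 with DMSO and at 76.7, 72.6 and 76.8 CPM with BAY-850. In SK-OV3 the values were 75.7, 81.4 and 76.2 CPM with DMSO and 84.4, 79.4 and 82.0 CPM with BAY-850. BAY-850 was lower without overlap in PA-1, and the SK-OV3 groups overlapped. Its log2 fold change was -0.25 (SE 0.0564) in PA-1, against 0.0891 (SE 0.0605) in SK-OV3, a difference of 0.33 (SE 0.074). The ATG5 transcript had the lowest GC content of the 10, 38.8%, and with the GC trend removed the PA-1 value was -0.15 and its call was lost.

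**Figure D1:**
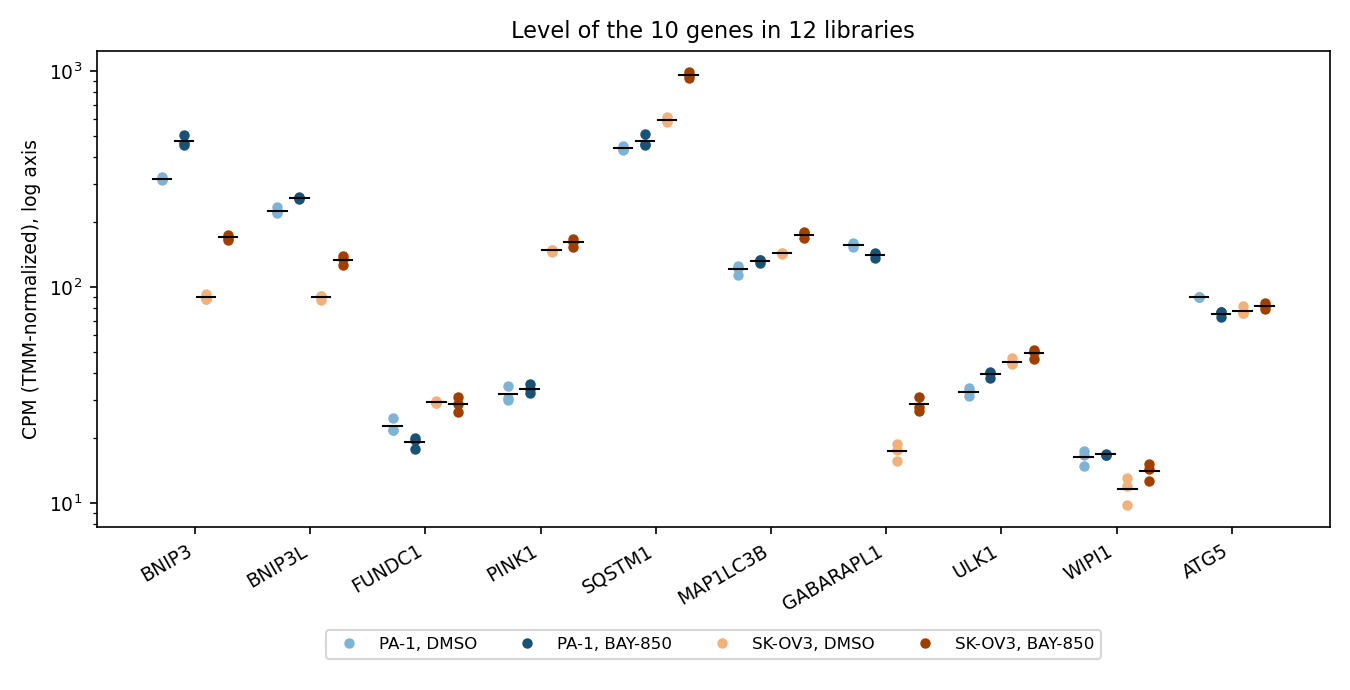
Level of each of the 10 genes in CPM on a log axis, with 1 point per library and a black bar at the mean of the 3 libraries of a group. BNIP3 separates all 4 groups, GABARAPL1 lies at 137 to 160 CPM in PA-1 and at 15.7 to 31.1 CPM in SK-OV3, and the WIPI1 treatments overlap in both lines.

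Counted over the 10 genes, 3 were called higher with BAY-850 in PA-1 at an adjusted p under 0.05 (BNIP3, BNIP3L and ULK1), where 4.65% of 15212 genes tested were called higher. ATG5 alone was called lower in PA-1, where 2.48% of all genes were. In SK-OV3, 5 were called higher (BNIP3, BNIP3L, SQSTM1, MAP1LC3B and GABARAPL1), where 10.8% of 15348 genes were, and none was called lower, where 9.56% were. The libraries of the treatments did not overlap for 8 of the 10 genes in PA-1 and for 6 in SK-OV3, against 27.5% and 38.6% of all genes. The response was called higher in SK-OV3 than in PA-1 for 5 of the 10 genes (BNIP3, BNIP3L, SQSTM1, GABARAPL1 and ATG5), where 6.70% of 16830 genes were, and for none was it called lower, where 7.77% were. Since the genes were picked with these differences known, nothing is read from these counts. Over the 10 genes the median log2 fold change came to 0.10 for PA-1 and to 0.30 for SK-OV3, beside -0.0019 and -0.0091 over all genes tested. In PA-1 the calls of BNIP3L, ULK1 and ATG5 were each lost without DMSO replicate 1, without DMSO replicate 2 or without BAY-850 replicate 2, which left 1 gene called higher and 0 called lower. The call of BNIP3L was also lost without DMSO replicate 3 and without BAY-850 replicate 1. The SK-OV3 calls and that of BNIP3 in PA-1 held in every fit tried.

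**Figure D2:**
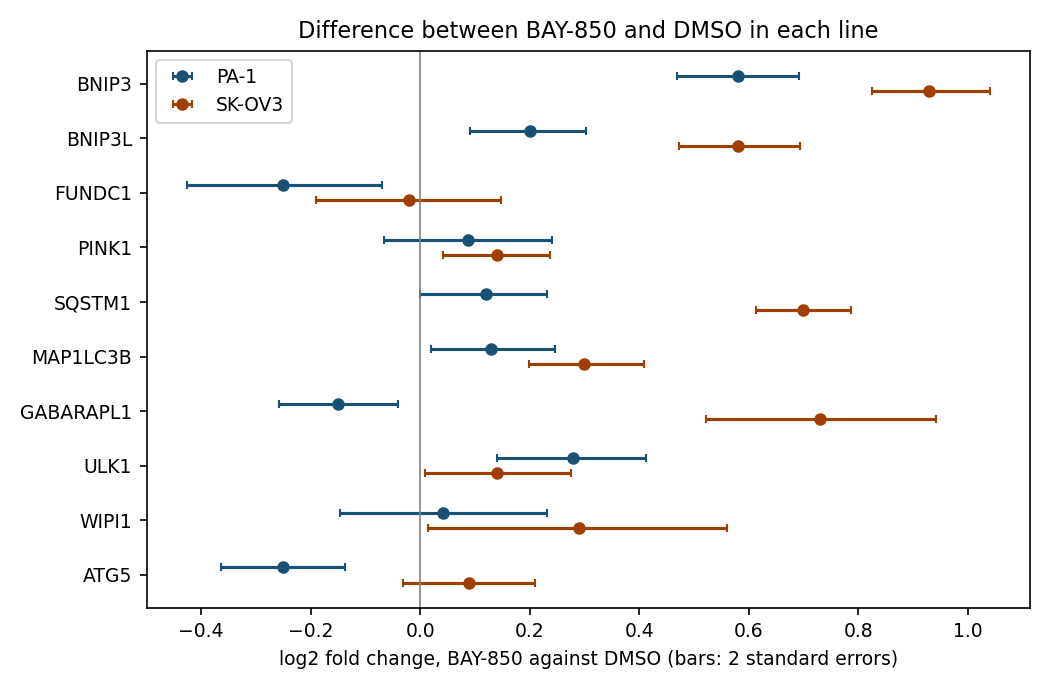
Log2 fold change of BAY-850 against DMSO for the 10 genes in PA-1 and SK-OV3, with bars of 2 standard errors from edgeR. In SK-OV3 the bars of BNIP3, BNIP3L, SQSTM1 and GABARAPL1 start at 0.473 or above, while in PA-1 the highest start is that of BNIP3 at 0.469.

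The comparison of the lines with DMSO did not choose the genes, so it was tested, with edgeR's quasi-likelihood test and Benjamini-Hochberg adjustment over 16070 genes. It uses the DMSO libraries that also enter the comparisons above, and the cell line and its medium cannot be told apart. All 10 genes passed the test, 5 higher and 5 lower in SK-OV3, in a comparison where 40.1% of all genes were called higher and 40.2% lower. BNIP3 was lower in SK-OV3 by 3.54-fold (log2 fold change -1.83, SE 0.053, adjusted p = 5.6e-12) and BNIP3L by 2.53-fold (log2 fold change -1.34, SE 0.0534, adjusted p = 1.2e-10). GABARAPL1 showed the largest gap, 9.05-fold lower in SK-OV3 (log2 fold change -3.18, SE 0.0729, adjusted p = 6.34e-13). PINK1 went the other way and was 4.62-fold higher in SK-OV3 (log2 fold change 2.21, SE 0.0682, adjusted p = 1.02e-11).

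The other 6 genes differed between the lines by less than 1.5-fold. SQSTM1 (log2 fold change 0.43, SE 0.049), ULK1 (0.46, SE 0.0689), FUNDC1 (0.37, SE 0.0818) and MAP1LC3B (0.25, SE 0.0543) were higher in SK-OV3. WIPI1 (-0.49, SE 0.129) and ATG5 (-0.21, SE 0.0559) were lower in SK-OV3. Their adjusted p-values in edgeR ran from 3.37e-06 for SQSTM1 to 0.0038 for WIPI1 and ATG5. The gap of ATG5 was not called when libraries were scaled by size only, where it was -0.16, or with the GC trend removed, where it was -0.05.

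Divided by transcript length, SQSTM1 was the most abundant of the 10 genes in every group, at 147 CPM per kb in PA-1 and 199 CPM per kb in SK-OV3 with DMSO. In PA-1 with DMSO it was followed by BNIP3 at 104, GABARAPL1 at 68.4, BNIP3L at 62.7, MAP1LC3B at 44.9, ATG5 at 27.9, FUNDC1 at 19, PINK1 at 12, WIPI1 at 8.89 and ULK1 at 6.16 CPM per kb. No neighbours in that order overlapped between their 3 libraries. In SK-OV3 with DMSO the order after SQSTM1 was PINK1 at 55.5, MAP1LC3B at 53.4, BNIP3 at 29.3, BNIP3L at 24.9, FUNDC1 at 24.6, ATG5 at 24.2, ULK1 at 8.48, GABARAPL1 at 7.57 and WIPI1 at 6.35 CPM per kb. There the libraries of BNIP3L and FUNDC1, of FUNDC1 and ATG5, and of GABARAPL1 and WIPI1 overlapped. With BAY-850, BNIP3 reached 155 CPM per kb in PA-1, where its libraries overlapped those of SQSTM1 at 160, and 55.5 CPM per kb in SK-OV3.

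**Figure D3:**
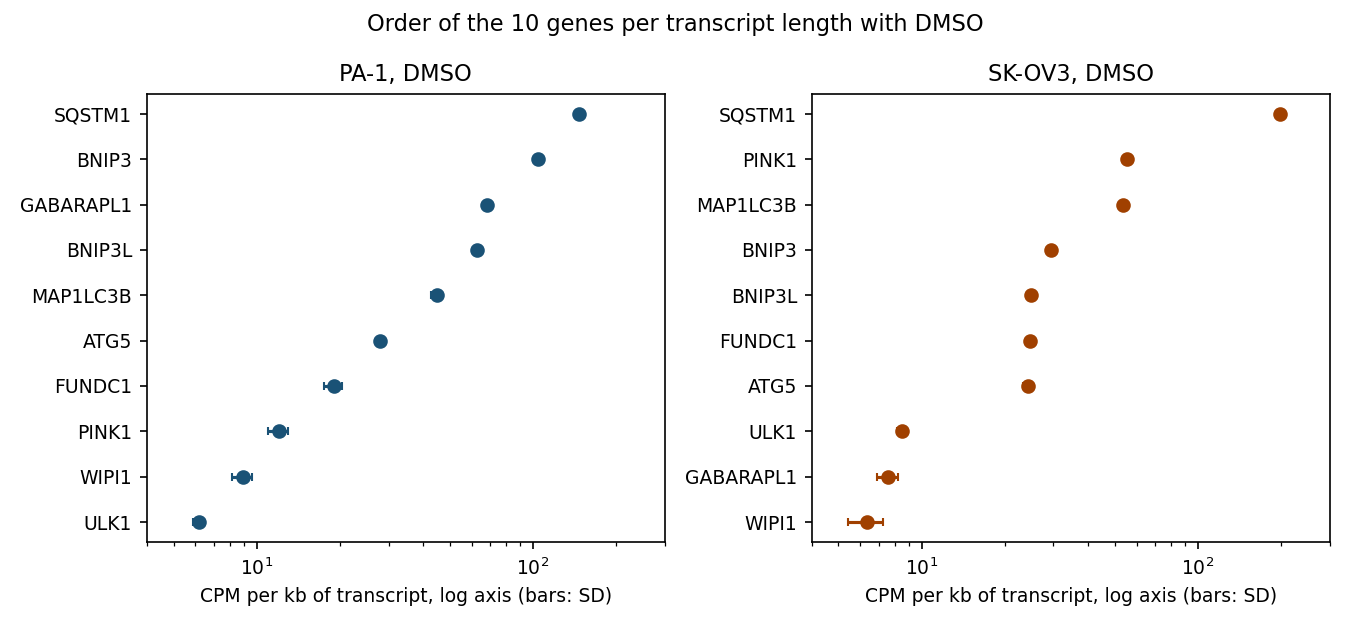
Mean level of the 10 genes with DMSO in CPM per kb of the longest protein-coding transcript, on a log axis with bars of 1 SD over 3 libraries, ordered within each line. After SQSTM1 come BNIP3 and GABARAPL1 in PA-1, but PINK1 and MAP1LC3B in SK-OV3.

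A list of 73 further genes of the pathway, grouped by role, was read in the same fits. In PA-1, 2 of the 71 tested rose with BAY-850 and 1 fell, or 2.82% higher beside 4.65% of all genes, and their median log2 fold change was -0.024. In SK-OV3, 16 of 71 rose and 3 fell, or 22.5% higher beside 10.8% of all genes, and their median was 0.11. Among all genes tested, 2.48% were called lower in PA-1 and 9.56% in SK-OV3. The same shares of all genes stand beside the counts by role below. The list was chosen with earlier results of these data known. The count of 16 was sensitive to single libraries, at 8 without DMSO replicate 2, 10 without DMSO replicate 3 and 10 without BAY-850 replicate 1. The count of 3 that fell became 1 without DMSO replicate 2 and 5 without DMSO replicate 1. The 1 gene that fell in PA-1 was no longer called without any 1 of DMSO replicates 1, 2 and 3 or BAY-850 replicates 2 and 3, and 4 genes rose without BAY-850 replicate 3.

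None of the 6 other mitophagy receptors (FKBP8, BCL2L13, PHB2, NLRX1, NIPSNAP1 and NIPSNAP2) passed the test in either line in the edgeR fit reported. Unadjusted, FKBP8 and NIPSNAP2 in PA-1 and FKBP8 and NLRX1 in SK-OV3 had p under 0.05. FKBP8 passed in SK-OV3 with DESeq2 (adjusted p = 0.0242), with no filter on low counts (0.0336) and with at least 10 counts in every library (0.0498), and FKBP8, NLRX1 and NIPSNAP1 each passed there without DMSO replicate 1. FKBP8, an outer-membrane protein that recruits LC3A, had the value 0.16 (SE 0.0597) in PA-1 and 0.19 (SE 0.0667) in SK-OV3. PHB2, a prohibitin of the inner membrane, had -0.00446 (SE 0.065) in PA-1 and -0.0175 (SE 0.0735) in SK-OV3. The remaining receptor values lay between -0.14 for NIPSNAP2 in PA-1 and 0.19 for NLRX1 in SK-OV3. With DMSO all 6 differed between the lines, where 40.1% of all genes were called higher in SK-OV3 and 40.2% lower. Of the 6, 5 were lower in SK-OV3, as BNIP3 and BNIP3L were, while the receptor FUNDC1 was higher. The exception among the 6 was NLRX1, at a log2 fold change of 0.92 (SE 0.0813, edgeR adjusted p = 3.16e-07).

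In the ATG8 family, 2 of the 4 other genes tested rose in SK-OV3, where 10.8% of all genes were called higher. None of 4 passed in PA-1 with edgeR, DESeq2 or limma-voom, and 0 had an unadjusted p under 0.05. GABARAP was at 66.0, 60.3 and 61.3 CPM with DMSO and 80.6, 76.9 and 87.7 CPM with BAY-850 in SK-OV3, a difference of 0.40 on the log2 scale (SE 0.0738, adjusted p = 0.00295). GABARAPL2 was at 87.6, 82.6 and 79.3 CPM with DMSO and 97.1, 95.1 and 97.3 CPM with BAY-850, a difference of 0.23 on the log2 scale (SE 0.0602, adjusted p = 0.0201). Its call was lost without DMSO replicate 2 (adjusted p = 0.0886), without DMSO replicate 3 (adjusted p = 0.0943) and without BAY-850 replicate 1 (adjusted p = 0.0617). In PA-1 the values were -0.0504 (SE 0.0631) for GABARAP and -0.11 (SE 0.0679) for GABARAPL2, and the interaction test separated the lines for GABARAP (0.44, SE 0.0933, adjusted p = 0.00544) and GABARAPL2 (0.33, SE 0.0899, adjusted p = 0.0233). The interaction of GABARAPL2 was not called without any 1 of PA-1 DMSO replicate 2, PA-1 BAY-850 replicates 1 and 2 and SK-OV3 DMSO replicate 3 (adjusted p from 0.0575 to 0.0687). MAP1LC3A did not pass the filter in PA-1, where it did not exceed 0.158 CPM, and averaged 6.25 CPM in SK-OV3 with DMSO. MAP1LC3C did not pass it in SK-OV3, where it did not exceed 0.291 CPM, and averaged 3.71 CPM in PA-1 with DMSO. MAP1LC3B2 did not pass the test in either line (-0.0767, SE 0.374, in PA-1 and 0.18, SE 0.601, in SK-OV3).

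Among cargo adaptors, 3 of the 8 other genes rose in SK-OV3 (OPTN, CALCOCO2 and TOLLIP), where 10.8% of all genes were called higher. None of 7 passed in PA-1 in the edgeR fit reported, with DESeq2 or with limma-voom. Unadjusted, 2 (TAX1BP1 and WDFY3) had p under 0.05, and WDFY3 passed in edgeR without BAY-850 replicate 3 (adjusted p = 0.0488). TOLLIP was not called without any 1 of DMSO replicates 2 and 3 and BAY-850 replicates 1 and 2 (adjusted p from 0.0959 to 0.151). OPTN, which encodes the ubiquitin-binding adaptor optineurin, was at 80.4, 81.5 and 82.7 CPM with DMSO and 139, 139 and 150 CPM with BAY-850 in SK-OV3. Its log2 fold change was 0.82 (SE 0.059, adjusted p = 3.28e-06), the largest on the list in that line, against 0.0845 (SE 0.056) in PA-1, and the difference passed the interaction test (0.73, SE 0.0713, adjusted p = 9.25e-06). RETREG1, a receptor for the endoplasmic reticulum, did not pass the filter in PA-1.

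WDR45B, a relative of WIPI1 that also binds phosphatidylinositol 3-phosphate, showed the clearest change of the list in PA-1. It was at 183, 183 and 186 CPM with DMSO and at 274, 280 and 273 CPM with BAY-850, a difference of 0.59 on the log2 scale (SE 0.0511, adjusted p = 4.4e-06). In SK-OV3 it was at 167, 165 and 169 CPM with DMSO and 176, 177 and 168 CPM with BAY-850, a value of 0.0712 (SE 0.0474). The interaction test gave -0.53 (SE 0.0605, adjusted p = 3.81e-05), so the response of WDR45B was larger in PA-1. ATG9A, the lipid scramblase of autophagy vesicles, also had a larger response in PA-1, with 0.32 (SE 0.0597, adjusted p = 0.00489) in PA-1, -0.0614 (SE 0.0558) in SK-OV3 and an interaction of -0.40 (SE 0.0768, adjusted p = 0.00291). ATG9B did not pass the filter in SK-OV3.

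ATG3, the enzyme that transfers ATG8 proteins to lipid, was the gene that fell in PA-1. It was at 62.4, 65.8 and 63.9 CPM with DMSO and 57.4, 54.2 and 52.2 CPM with BAY-850, a difference of -0.23 on the log2 scale (SE 0.0613, adjusted p = 0.0386), and at -0.14 with the GC trend removed the call was lost (adjusted p = 0.193). ATG3 and ATG5 act in the same conjugation steps, and of the 10 other genes of that group 1 was called in PA-1 (ATG3) and 1 in SK-OV3 in the fit reported, where ATG12 rose by 0.26 (SE 0.0608, adjusted p = 0.0115). The ATG12 call was lost without DMSO replicate 2 (adjusted p = 0.0597). In SK-OV3, ATG16L1 was called lower in 6 of 17 alternatives (DESeq2 adjusted p = 0.0369), and ATG16L2 and ATG7 were each called higher in 2.

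In SK-OV3, 4 of 6 transcription factors known to act on autophagy genes rose (TFEB, TFE3, FOXO1 and FOXO3), where 10.8% of all genes were called higher. The call of TFEB (0.34, adjusted p = 0.0453) was lost in 10 of 17 alternatives, among them limma-voom and the omission of any 1 library other than BAY-850 replicate 3. FOXO1 had a log2 fold change of 0.43 (SE 0.1, adjusted p = 0.0109) and FOXO3 of 0.40 (SE 0.0525, adjusted p = 0.000285). In PA-1, 0 of 6 passed in the edgeR fit reported, where FOXO3 had 0.26 (SE 0.0803, adjusted p = 0.064) and an unadjusted p under 0.05, and FOXO3 passed in 6 of 17 alternatives (adjusted p from 0.00595 to 0.0479), among them DESeq2 and edgeR without BAY-850 replicate 3. The interaction was called for FOXO1 (0.52, SE 0.134, adjusted p = 0.0173) and not for FOXO3 (0.13, SE 0.106). Without PA-1 DMSO replicate 2 that of FOXO1 was not called (adjusted p = 0.0524). These are RNA levels of the factors and carry no measure of their activity.

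Of the remaining groups in SK-OV3, UVRAG, a subunit of a lipid kinase complex, rose by 0.48 (SE 0.0903, adjusted p = 0.00344) and PLEKHM1, an adaptor in the fusion with lysosomes, by 0.50 (SE 0.0872, adjusted p = 0.00207). The genes that fell in SK-OV3 were ATG2B (-0.27, SE 0.0823, adjusted p = 0.0378), a lipid transfer protein, VMP1 (-0.25, SE 0.0499, adjusted p = 0.0047), a scramblase of the endoplasmic reticulum, and MFN2 (-0.24, SE 0.0554, adjusted p = 0.0101), a mitochondrial fusion protein that Parkin ubiquitinates. Leaving out DMSO replicate 2 ended the call of MFN2 (adjusted p = 0.0713). The ATG2B call was lost without any 1 of DMSO replicates 2 and 3 and BAY-850 replicates 1, 2 and 3 (adjusted p from 0.0551 to 0.165). In the edgeR fit reported, none of the 4 other genes of the ULK complex passed in either line. Of the 7 other genes of the PINK1-Parkin branch, 1 did in that fit, MFN2 in SK-OV3. VDAC1 was called lower there in 3 of 17 alternatives, DESeq2 and 2 edgeR fits. RB1CC1 in PA-1 and ATG101 in SK-OV3 had an unadjusted p under 0.05, and ATG101 passed without DMSO replicate 1 or BAY-850 replicate 3.

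**Figure D4:**
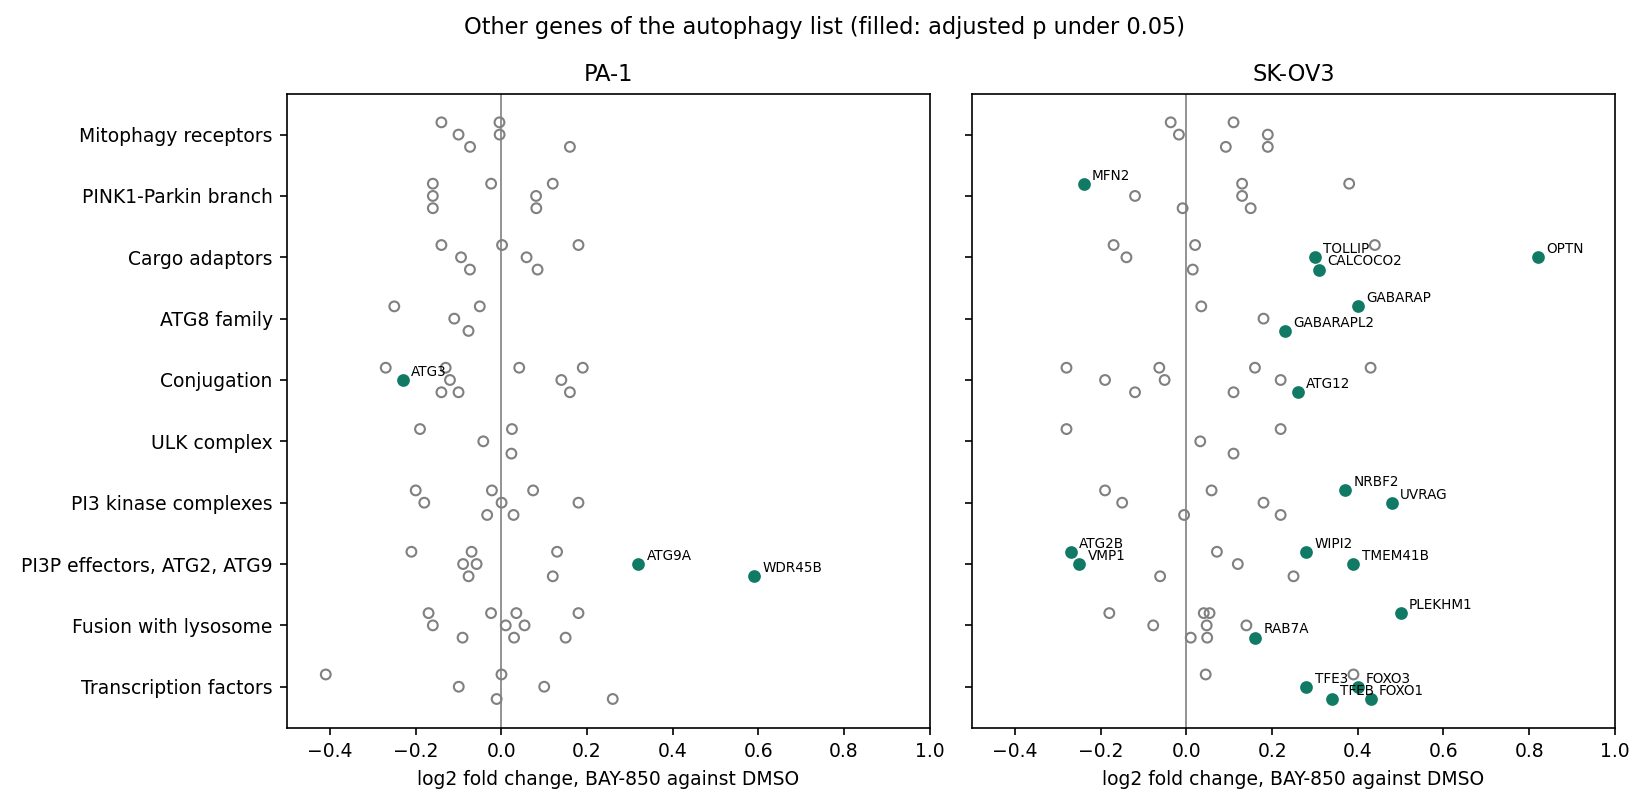
Log2 fold change of BAY-850 against DMSO for the other genes of the autophagy list by role, PA-1 on the left and SK-OV3 on the right, with 1 point per gene and filled points for an adjusted p under 0.05. In PA-1, 3 points are filled, with WDR45B farthest to the right, and in SK-OV3, 19 are filled, with OPTN farthest to the right.

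The genes whose levels ran most like BNIP3 were ranked by Pearson's r of log2 CPM over the 12 libraries, among 14092 other genes with a mean of at least 1 CPM. Over all libraries, where the gap between the lines weighs most, they were ALDOC (r = 0.994), CD9 (0.993), DDIT4 (0.992), WARS (0.991) and BNIP3L (0.990). With each line centred on its own mean, which leaves the difference between treatments and the spread of replicates, they were VEGFA (0.985), RRAGD (0.984), DDIT4 (0.981), CLK3 (0.980) and PLIN2 (0.976). DDIT4, an inhibitor of mTORC1 signalling, went from a mean of 449 to 935 CPM in PA-1 and from 73.5 to 223 CPM in SK-OV3. VEGFA, the angiogenic growth factor, went from 108 to 199 CPM in PA-1 and from 176 to 399 CPM in SK-OV3. The points of each line share their libraries and scaling, and any gene with a clear difference between treatments in both lines is bound to correlate here.

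Among the other 9 genes, centred within the lines, BNIP3L came nearest to BNIP3 (r = 0.951, rank 32), followed by MAP1LC3B (0.934), SQSTM1 (0.916), ULK1 (0.773), GABARAPL1 (0.688), PINK1 (0.671) and WIPI1 (0.612). FUNDC1 (-0.503) and ATG5 (-0.241) ran against it. Over all libraries without centring, SQSTM1 stood at -0.523 and MAP1LC3B at -0.506, since both were higher in SK-OV3, so the sign of their likeness to BNIP3 depends on whether the gap between the lines is kept.

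**Figure D5:**
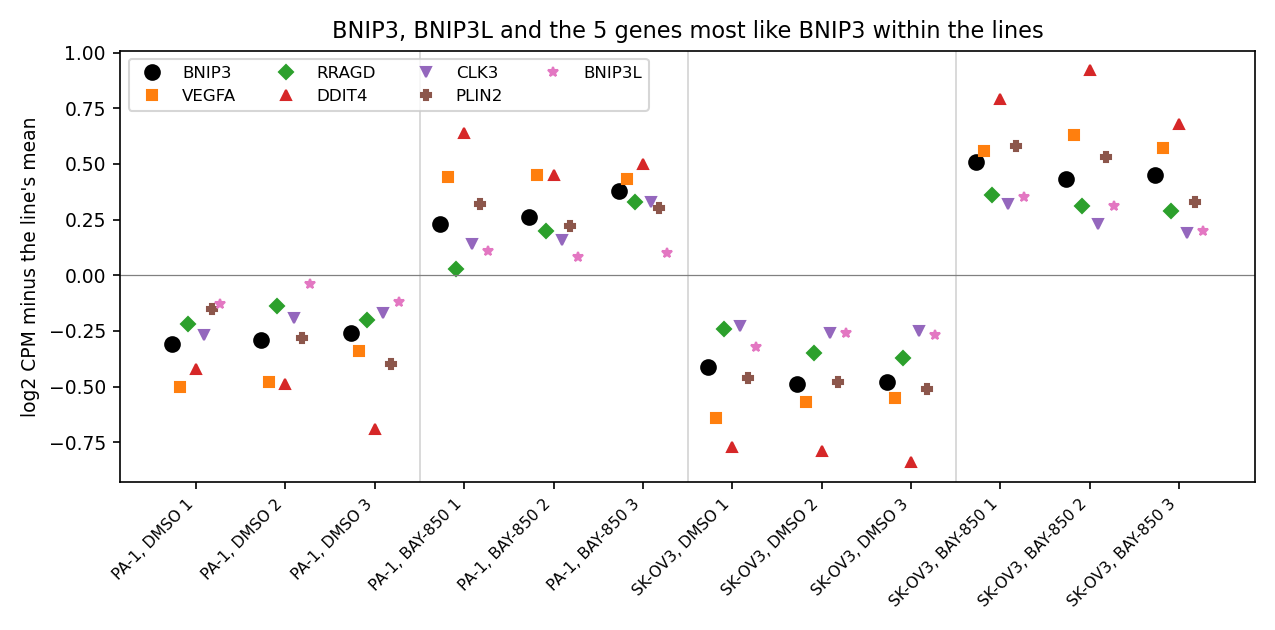
Log2 CPM minus the mean of the line for BNIP3, BNIP3L and the 5 genes most like BNIP3 within the lines, with 1 point per gene and library and grey lines between groups. All 7 genes lie below 0 in the 6 DMSO libraries and above 0 in the 6 BAY-850 libraries.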

How the data were processed

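Values are the expected counts from RSEM that the authors deposited, 1 per gene symbol and library and not normalized. The submitters' processing notes name RSEM 1.2.15, Bowtie2 2.1.0 and hg38, while the annotation and the strand setting are not given in the sources used here. The labels describe mRNA purified with oligo-dT beads, and the design text names depletion of ribosomal RNA. RSEM divides reads that fit several genes, and the share of values that were not whole ran from 8.94% to 12.4% over the libraries.

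Expected counts were rounded, filtered by edgeR's filterByExpr by group and scaled with TMM. Groups were compared with the quasi-likelihood test of edgeR 4.0.16 in R 4.3.3, with Benjamini-Hochberg adjustment over all genes tested and a threshold of 0.05. The SE is the size of the log2 fold change divided by the square root of F. The interaction used all 12 libraries. CPM levels used TMM factors over all 12 libraries, and log2 CPM a prior count of 2. Transcript length (longest protein-coding transcript), GC content and gene positions came from GENCODE 29 on GRCh38. The scripts were tested on simulated counts with changes set in advance. The spread set between replicates there was below that estimated in both lines here, so the simulation gives no rate of right calls for these data.

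The members and lists were chosen with earlier results of these data known. Genes were named by a rule: all 10 members, every ATG8 gene and mitophagy receptor, for each line, up to 5 called list genes that rose most and 5 that fell most, at a mean of at least 1 CPM, list genes absent from the tests, and the 5 genes most like BNIP3. CALCOCO2, TOLLIP, TFEB, TFE3, ATG12, TAX1BP1, WDFY3, VDAC1, ATG16L1, ATG16L2, ATG7, RB1CC1, ATG101 and those in the flagged results were named after their values were seen. The sources call the replicates biological and say no more of their origin. To check the replicate number, each library's log2 CPM was taken as deviations from the mean of its group. Between the treatments of a line, these deviations correlated from -0.0831 to 0.0987 for same-numbered libraries. For differently numbered libraries they correlated from -0.211 to 0.123, so the number was not used as a block in the fit reported. Alternatives were RLE factors, library size with and without ribosomal RNA genes, DESeq2 1.42.0, limma-voom (limma 3.58.1), 2 other filters, 1 fit of all libraries, the replicate block, removal of the GC trend (loess span 0.5), and leaving out each library.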

Additional observations from a re-analysis of the deposited data

Results flagged for a closer look

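The response to BAY-850 differed between SK-OV3 and PA-1 for 20 of the 83 pathway genes, by the interaction term in edgeR at an adjusted p under 0.05. Of the 73 list genes other than the 10 described above, 15, or 20.5%, were called. Among all genes, 6.70% had a higher and 7.77% a lower response in SK-OV3. The list was also chosen with earlier results of these data known. Among the 10 genes described above the differences, SK-OV3 minus PA-1 on the log2 scale, were 0.34 for BNIP3, 0.38 for BNIP3L, 0.57 for SQSTM1, 0.87 for GABARAPL1 and 0.33 for ATG5. These 5 were chosen with the responses known.

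Among the other list genes the response was higher in SK-OV3 for 11. The adaptors OPTN and CALCOCO2 differed by 0.73 and 0.39, and the ATG8 genes GABARAP and GABARAPL2 by 0.44 and 0.33. The conjugation genes ATG3 and ATG12 differed by 0.33 and 0.37, and the lipid kinase subunits UVRAG and NRBF2 by 0.50 and 0.56. TMEM41B, a scramblase, differed by 0.47, and the transcription factors TFE3 and FOXO1 by 0.27 and 0.52. The response was lower in SK-OV3 for 4 genes, at -0.38 for MFN2, -0.21 for VDAC1, a channel of the outer mitochondrial membrane, -0.53 for WDR45B and -0.40 for ATG9A. Of 21 alternatives, 10 ended the call of VDAC1, 5 each those of TFE3 and GABARAPL2, 2 each those of ATG3 and TMEM41B, and 1 each those of MFN2 and FOXO1. The omission of any 1 of 7 libraries did so for VDAC1 (adjusted p from 0.0508 to 0.0678). The replicate block ended the calls of VDAC1, TFE3, ATG3 and GABARAPL2. The lines also differed in medium, which cannot be told apart from the line.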

How the results depend on the processing

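The directions of the BNIP3, BNIP3L, SQSTM1, MAP1LC3B and GABARAPL1 responses in both lines held under every alternative tried, and no called gene reversed. The counts of all genes called in PA-1 (1085) became 466 with library size only, 1674 with DESeq2, 722 in 1 fit of all 12 libraries, 566 with the GC trend removed, 385 with the replicate block and the GC trend removed, and 340 to 1228 without 1 library. Members called higher in PA-1 (3) became 1 with library size only and 1 to 3 without 1 library, and those called lower (1) became 2 with DESeq2, 0 with the GC trend removed, with or without the block, and 0 to 1 without 1 library. List genes that rose in PA-1 (2) became 1 with library size only, 4 with DESeq2, with no filter or with at least 10 counts in every library, and 2 to 4 without 1 library. Those that fell (1) became 2 with RLE factors, library size without ribosomal RNA genes, DESeq2 or at least 10 counts, 0 with library size only, the replicate block or the GC trend removed, and 0 to 1 without 1 library. In SK-OV3 the genes of the list that fell (3) became 6 with library size without ribosomal RNA genes, DESeq2 or 1 fit of all libraries, 5 with at least 10 counts or the GC trend removed, and 1 to 5 without 1 library. Those that rose (16) came to 8 to 21, and all genes called (3130) to 1781 to 3902, without 1 library. List genes with a lower response in SK-OV3 (4) became 2 with library size only. The causes were not tested.

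With the replicate block, a number that the libraries share without further pairing, 931 genes were called in PA-1 and BNIP3L was not (adjusted p = 0.0625). Genes near 1 CPM, such as MAP1LC3B2, rest on few counts at these depths.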
